A study of Mus musculus with 4 samples.

Results

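The mast cells and basophils of mouse MC38 tumours were few: 90 of 39906 kept cells, or 0.226%, carried the transcripts by which they were chosen. A cell was taken when it had at least 1 unique molecular identifier (UMI) of Ms4a2 and at least 2 UMIs of Cpa3, Mcpt8 and Fcer1a together. It was left out when it had more than 1 UMI of Cd3d, Cd3e and Cd3g, or 10 or more UMIs of C1qa, C1qb and C1qc per 10000. The basophil type dominated. By a count of marker UMIs in each cell, 80 cells fell in a basophil class, 7 in a mast class and 3 in neither. Mcpt8 served both in the rule and as a basophil marker, so this split was in part set by the choice of cells. The tumours came from Trim25 cKO mice, in which Trim25 is conditionally deleted, and from WT mice. The mice were 8 weeks old when MC38 cells, a mouse colorectal tumour line, were placed under the skin. Both genotypes therefore share the tumour line, the age and the sort for CD45, the pan-leukocyte surface protein. The series title places the ablation in T cells; the sources used here do not give the Cre driver or its activity in mast cells or basophils. There were 2 libraries per genotype, cKO-1, cKO-2, WT-1 and WT-2, made with a Chromium 3′ v3 kit. The labels give the tissue as colon and the cell type as a tumour line, while the design text describes the CD45 sort. Of the 90 cells, 78 had a UMI of Ptprc, the gene for CD45. Whether each library is a separate animal is not stated, so the p-values reflect spread between libraries that may be technical.

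Basophils and mast cells are granule-bearing myeloid cells that hold IgE on a high-affinity receptor. Its alpha chain, encoded by Fcer1a, binds the antibody, its beta chain, encoded by Ms4a2, amplifies the signal, and its gamma chain, encoded by Fcer1g, is shared with other Fc receptors. Basophils circulate in the blood, depend on IL-3 and, in the mouse, express the protease gene Mcpt8. Mast cells mature in tissue, depend on the stem cell factor receptor Kit, and store chymases, tryptases and the carboxypeptidase encoded by Cpa3. Both types require the transcription factor GATA2 in the mouse, make histamine through Hdc, and release cytokines and lipid mediators.

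Transcripts of the 4 genes that chose the cells were close to absent from other kept cells, in part because the rule took such cells out. The stretches in front of these 4 genes are shown because the genes set the choice and because Gata2 was abundant in the selected cells. Each is 250 bases from RefSeq (GRCm38.p6), read 5′ to 3′ towards the gene's RefSeq start. All 4 genes lie on the minus strand, at chr19:11623720-11623969 for Ms4a2, chr1:173227230-173227479 for Fcer1a, chr3:20242182-20242431 for Cpa3 and chr14:56085198-56085447 for Mcpt8. Capitals mark the GATA-type letters AGATAA and TGATAA, searched on both strands, which do not overlap each other here.
Ms4a2: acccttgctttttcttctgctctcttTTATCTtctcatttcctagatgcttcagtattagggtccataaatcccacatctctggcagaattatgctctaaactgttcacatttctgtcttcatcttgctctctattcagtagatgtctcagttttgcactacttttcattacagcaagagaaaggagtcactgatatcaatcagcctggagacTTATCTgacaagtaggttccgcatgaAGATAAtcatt
Fcer1a: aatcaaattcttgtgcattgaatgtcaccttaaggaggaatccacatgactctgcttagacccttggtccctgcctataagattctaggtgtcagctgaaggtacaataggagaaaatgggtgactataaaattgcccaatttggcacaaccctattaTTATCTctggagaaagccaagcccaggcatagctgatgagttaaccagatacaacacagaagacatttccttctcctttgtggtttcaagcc
Cpa3: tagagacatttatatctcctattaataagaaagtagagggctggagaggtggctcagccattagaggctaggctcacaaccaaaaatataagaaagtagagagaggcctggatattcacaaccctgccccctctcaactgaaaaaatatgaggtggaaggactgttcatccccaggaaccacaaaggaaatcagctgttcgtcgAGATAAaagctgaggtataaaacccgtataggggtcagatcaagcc
Mcpt8: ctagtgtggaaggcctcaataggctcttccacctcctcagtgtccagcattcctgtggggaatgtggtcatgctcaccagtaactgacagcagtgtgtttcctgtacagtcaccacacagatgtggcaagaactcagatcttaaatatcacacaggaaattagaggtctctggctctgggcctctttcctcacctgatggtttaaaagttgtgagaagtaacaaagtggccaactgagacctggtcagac
Ms4a2 held 3 matches, which begin 224, 37 and 11 bases before the start. Fcer1a held 1 match beginning 92 bases before the start, Cpa3 held 1 beginning 46 bases before it, and Mcpt8 held none. The letters are common: 16.6% of all 32851 RefSeq promoter windows of that length, and 18.8% of genes, held at least 1. A match describes the letters only, and their absence says nothing about the factor.

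Deposited matrices held 8533 and 9654 barcodes in the cKO libraries and 10385 and 12318 in the WT libraries, with 96751399 to 127449324 UMIs per library. Barcodes are 20 letters long in the files. Among kept cells 289 barcode sequences occurred in more than 1 library, and none of these was shared between selected cells of different libraries. The libraries differed from one another well beyond counting noise, with a chi-square per degree of freedom of 44.0 to 102.2 over the kept cells of each pair. The selected cells were shallow, with a median of 3774.5 UMIs per cell against 8391 UMIs in all other kept cells. Summed over cells they gave 77154 and 161954 UMIs in cKO-1 and cKO-2, against 63561 and 118524 UMIs in WT-1 and WT-2. In all, 4 cells of cKO-2 and 1 cell of WT-2 lay above 10000 UMIs and carried 48.1% and 23.1% of their library's sum, so single cells weigh heavily in the values below. The automatic threshold of the doublet caller Scrublet marked 1 cell in all libraries and so had not worked; no selected cell scored above 0.2.

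At the edge of the rule, 6 selected cells had exactly 2 UMIs of Cpa3, Mcpt8 and Fcer1a, and 17 had a single Ms4a2 UMI. Just outside it, 22 kept cells had Ms4a2 but fewer than 2 UMIs of the 3 genes, 16 of them with none. A further 41 kept cells had 2 or more UMIs of the 3 genes but no Ms4a2. Another 5 met both counts and failed on the T cell or C1q limit.

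The class of a cell was set by its UMIs of basophil markers (Mcpt8, Prss34 and Cd200r3) against mast cell markers (Kit, Cma1, Mcpt4, Tpsb2, Tpsab1, Mrgprb1 and Mrgprb2). A cell chosen through Mcpt8, a gene of the rule, already has basophil-marker UMIs. Basophil-class cells had a median of 9 basophil-marker UMIs and a median of 0 mast-marker UMIs. Only 2 of these 80 cells had any mast-marker UMI, and both were above 10000 UMIs. Mast-class cells had a median of 31 mast-marker UMIs and 2 basophil-marker UMIs. Near the cut, 6 cells lay within 1 UMI, namely the 3 unclassed cells, 2 basophil-class cells and 1 mast-class cell. That mast-class cell, from cKO-2 with 14351 UMIs, was classed by 1 Kit UMI. Kit had a UMI in 6.27% of other kept cells. A basophil-class cell of cKO-2 with 24486 UMIs had 164 basophil-marker and 106 mast-marker UMIs, so its class is doubtful as well. A class cut this way is a range of counts, not a proven type. Of the cKO-1 cells the basophil class held 13 of 17 cells (76.5%, 95% Clopper-Pearson interval 50.1% to 93.2%), and in cKO-2 it held 20 of 23 (87.0%, 66.4% to 97.2%). In WT-1 it held 20 of 20 (100%, 83.2% to 100%), and in WT-2 it held 27 of 30 (90%, 73.5% to 97.9%). These intervals cover counting error only. The basophil-class share averaged 81.7% ± 7.41 in cKO libraries and 95% ± 7.07 in WT libraries (SD, n = 2 each), a difference of -13.3 percentage points that had p = 0.333 in a two-sided exact permutation test, the smallest p that 2 against 2 libraries allow.

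**Figure D1:**
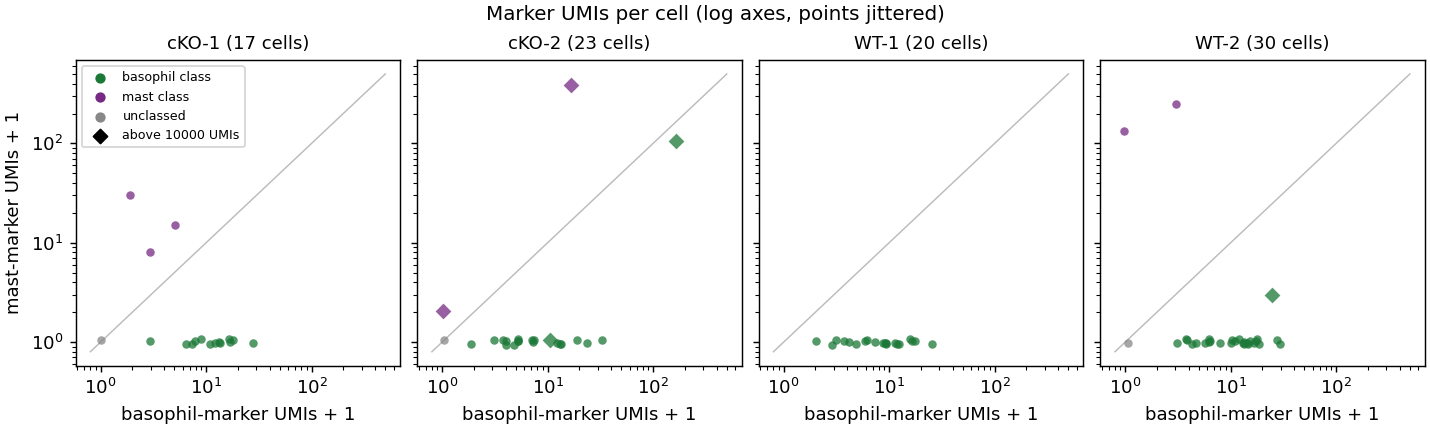
Each point is 1 selected cell, with its basophil-marker UMIs plus 1 on the horizontal axis and its mast-marker UMIs plus 1 on the vertical axis, both logarithmic, in a panel per library; the line marks equal counts and diamonds mark cells above 10000 UMIs. Most of the 90 cells lie along the bottom with no mast-marker UMI, and WT-1 has no cell above the line.

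A separate set of 7 cells stood out by 2 chymase genes that neither the rule nor the classes used. Mcpt1 and Mcpt2, which encode chymases of mucosal mast cells in the mouse, were seen in the same 7 cells and in none of the other 83. These genes were singled out after their values were seen, so the split is a description with no test. The 7 cells held 94 to 2788 UMIs of the pair each. There were 3 in cKO-1, 2 in cKO-2, none in WT-1 and 2 in WT-2. Of these, 6 belonged to the mast class. The remaining one, a cKO-2 cell of 24486 UMIs, had 151 UMIs of Mcpt8 beside 1365 of Mcpt1, 1423 of Mcpt2 and 38 of Kit. Whether it was 1 cell or several in a droplet was not tested beyond its Scrublet score of 0.0744. Mcpt1 and Mcpt2 are close copies of each other, so the split of reads between them is uncertain.

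Other granule genes varied among the 7 chymase-bearing cells. Tpsb2, a tryptase of connective-tissue mast cells, had 75 and 93 UMIs in the 2 cells of WT-2. In the cKO libraries it had 31 UMIs in 1 cell of cKO-2 and none in any cell of cKO-1. Other mast markers were seen in both genotypes. Cma1 was found in all 7 cells, with 12 UMIs in cKO-1, 141 in cKO-2 and 125 in WT-2. Mcpt4 was found in 6 of them, with 28 UMIs in cKO-1, 241 in cKO-2 and 55 in WT-2. Mrgprb2, the receptor through which mouse mast cells answer basic secretagogues, was seen in both WT-2 cells (1 and 3 UMIs) and in no cKO cell. With 7 cells from 3 libraries this is a list of values, not a comparison of genotypes. Summed over the 7 cells, Kit reached 1237 CPM (counts per 1000000 UMIs), against 8.30 CPM in the other 83 cells, and Cpa3 reached 9142 CPM against 736 CPM. Mitf, a transcription factor of the mast cell lineage, had 29 of its 31 UMIs in the 7 cells. Basophil genes did not all follow one pattern. Cd200r3, an activating receptor, had 485 CPM in the 7 cells against 1295 CPM in the others, while Mcpt8 had 2691 CPM against 814 CPM, with 151 of its 161 UMIs in the 7 cells coming from the cKO-2 cell described above. Hdc had 919 CPM in the 7 cells against 5017 CPM, and Cxcr2, Alox15 and Csrp3 had no UMI in the 7 cells. Several cytokine genes lay almost wholly in the other cells: Ccl3 had 435 CPM in the 7 cells against 16795 CPM, Osm 117 CPM against 6982 CPM, and Ccl6 and Hgf had no UMI in the 7 cells. The chemokine gene Ccl2 lay mostly in the 7 cells, at 2474 CPM against 63.6 CPM.

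Ratios of mean CPM were taken against all other kept cells of the same libraries. The members were chosen on these counts, so the ratios carry no test. Among 668 genes with at least 50 CPM in the selected cells of every library and higher there in all 4, the 25 with the largest ratio included all 4 genes of the rule. The choice of cells in part set the ratios of those 4 genes, so their place among the 25 does not name the type. UMIs are counted once per molecule at the 3′ end, so CPM is not divided by gene length. Of the receptor genes, Ms4a2 averaged 796 ± 179 CPM in the selected cells and 0.123 CPM in other kept cells (SD over 4 libraries), and Fcer1a averaged 1365 ± 397 CPM against 0.266 CPM. Of the granule proteins, Cpa3 averaged 1781 ± 992 CPM against 0.317 CPM, and Mcpt8, whose product marks mouse basophils, 993 ± 338 CPM against 0.300 CPM. Gata2 had 1607 and 1673 CPM in cKO-1 and cKO-2, against 1479 and 1468 CPM in WT-1 and WT-2, and averaged 0.490 CPM in other kept cells.

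Enzymes and transporters of mediators formed a second group among the 25. Hdc, which makes histamine, averaged 4781 ± 1444 CPM in the selected cells against 11.8 CPM in other kept cells. Neutrophils, taken by a rule on Csf3r, S100a8, S100a9, Retnlg and Cxcr2 (112 cells), also had Hdc, at 1091 CPM. Slc18a2, the transporter that loads amines into granules, averaged 183 ± 71.5 CPM against 0.399 CPM. Alox15, a lipoxygenase, averaged 146 ± 67.3 CPM against 0.107 CPM, and Alox5, which starts leukotriene synthesis, 253 ± 180 CPM against 2.70 CPM. Cyp11a1, the enzyme that begins steroid synthesis from cholesterol, averaged 662 ± 228 CPM against 0.272 CPM. Csrp3, a LIM-domain protein best known from muscle, averaged 404 ± 179 CPM against 0.0793 CPM. It was detected in 54 of the 83 cells without chymase transcripts.

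The rest of the 25 were surface, signalling and less studied genes. Cd200r3 averaged 1302 ± 451 CPM in the selected cells against 0.691 CPM in other kept cells, and Cxcr2, a chemokine receptor, 342 ± 115 CPM against 1.97 CPM. Neutrophils had 494 CPM of Cxcr2, a level set in part by their rule, which used Cxcr2 and Retnlg together. The neutrophil markers S100a8, S100a9, Csf3r and Retnlg each averaged under 5 CPM in the selected cells, with S100a9 at 0. Slc24a3, a sodium, potassium and calcium exchanger, averaged 1196 ± 346 CPM against 18.6 CPM, and Myo1d, a class I myosin, 631 ± 241 CPM against 2.61 CPM. Klf5, a zinc finger transcription factor, averaged 313 ± 62.7 CPM against 0.553 CPM. Car8, Defb40, Far2, Npl, D430036J16Rik and B630019A10Rik made up the remainder besides the cytokine genes, at 61.3 to 190 CPM. RefSeq promoter windows were matched for 19 of the 25 genes, and 7 of these (36.8%) held the GATA-type letters, against 18.8% of all genes. The 7 include Ms4a2, Fcer1a and Cpa3, which the rule used, and the 2 shares were not tested against each other.

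**Figure D2:**
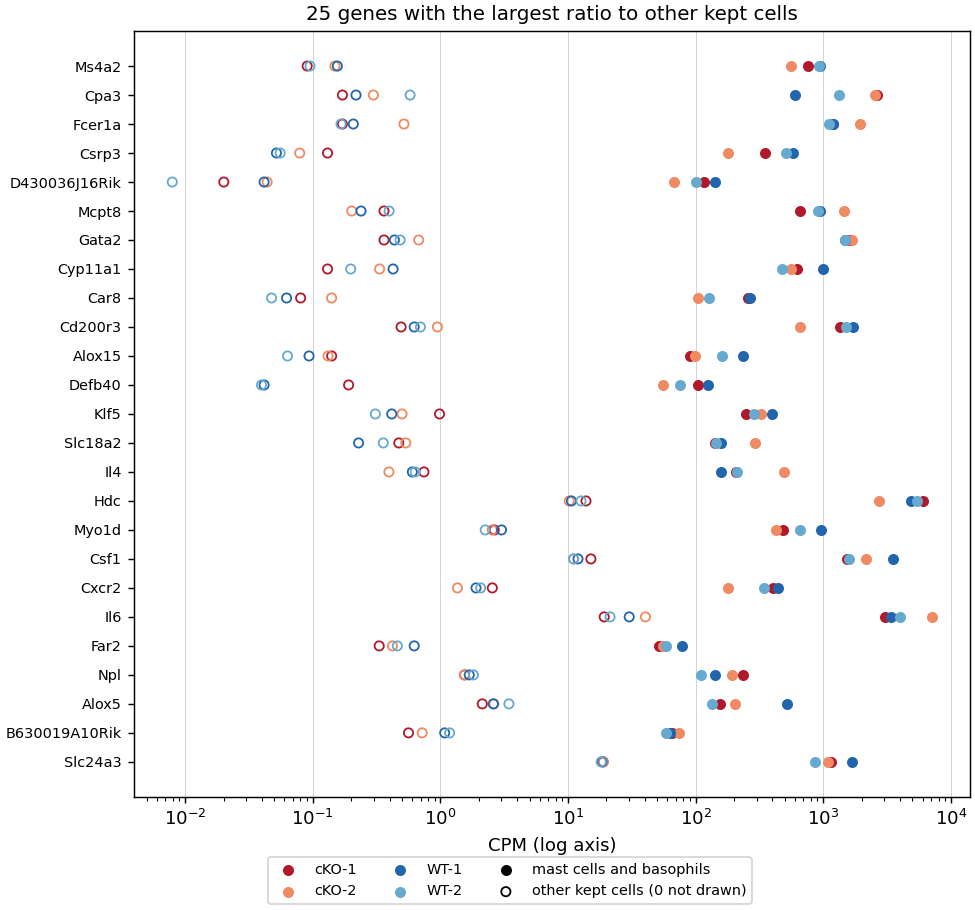
Each filled point is the CPM of a gene in the selected cells of 1 library and each open point its CPM in the other kept cells of that library, on a logarithmic axis, for the 25 genes with the largest ratio. Filled and open points do not meet for any of the 25 genes, which follows from their choice as higher in the selected cells in all 4 libraries with the largest ratios.

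Cytokine and chemokine transcripts made up a large share of the selected cells' RNA. The 22 genes of that list summed to 46232 and 61678 CPM in cKO-1 and cKO-2, against 61846 and 53677 CPM in WT-1 and WT-2. Their sum averaged 4616 CPM in other kept cells and 22456 CPM in the neutrophils. Of the 22 genes, 11 were higher than in other kept cells in all 4 libraries and 5 were lower in all 4. Over all 11292 genes with a UMI in the selected cells, 9.42% were higher in all 4 libraries and 27.7% lower in all 4. Over the 1756 genes abundant enough to be tested between genotypes, 34.6% were higher and 27.7% lower in all 4. Ccl4 and Ccl3, chemokines that attract leukocytes, averaged 15766 ± 4142 and 14601 ± 2444 CPM (SD, n = 4), against 609 and 351 CPM in other kept cells. Ccl6, an attractant of myeloid cells in the mouse, averaged 7393 ± 2390 CPM against 174 CPM, and Ccl9, its close relative, 2942 ± 921 CPM against 142 CPM. For both genes the cKO libraries lay below the WT libraries, as for 19.3% of the genes tested, and neither was called between genotypes. Osm, a cytokine of the IL-6 family, averaged 5825 ± 610 CPM against 240 CPM.

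Growth factor and interleukin genes followed. Il6 had 3046 and 7064 CPM in cKO-1 and cKO-2, against 3398 and 3999 CPM in WT-1 and WT-2; only cKO-2 stood apart, and its selected cells had a median of 40 Il6 UMIs where the others had 3.5 to 6. Csf1, which sustains macrophages, had 1529 and 2149 CPM in the cKO libraries against 3540 and 1603 CPM in the WT libraries, so the genotypes overlapped. Hgf, hepatocyte growth factor, averaged 1012 ± 124 CPM against 27.5 CPM in other kept cells. Its cKO libraries lay below its WT libraries, as for 19.3% of the genes tested, and it was not called between genotypes. Il4, the type 2 cytokine that basophils are known for, had 207 and 494 CPM in the cKO libraries against 157 and 211 CPM in the WT libraries, and 0.594 CPM in other kept cells. A single cKO-2 cell of 14351 UMIs, in the mast class by 1 Kit UMI, held 46 of that library's 80 Il4 UMIs. Il13 had 1 and 10 UMIs in the cKO libraries and 2 and 13 UMIs in the WT libraries. No UMI of Il3 or Csf2 was found in any selected cell.

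**Figure D3:**
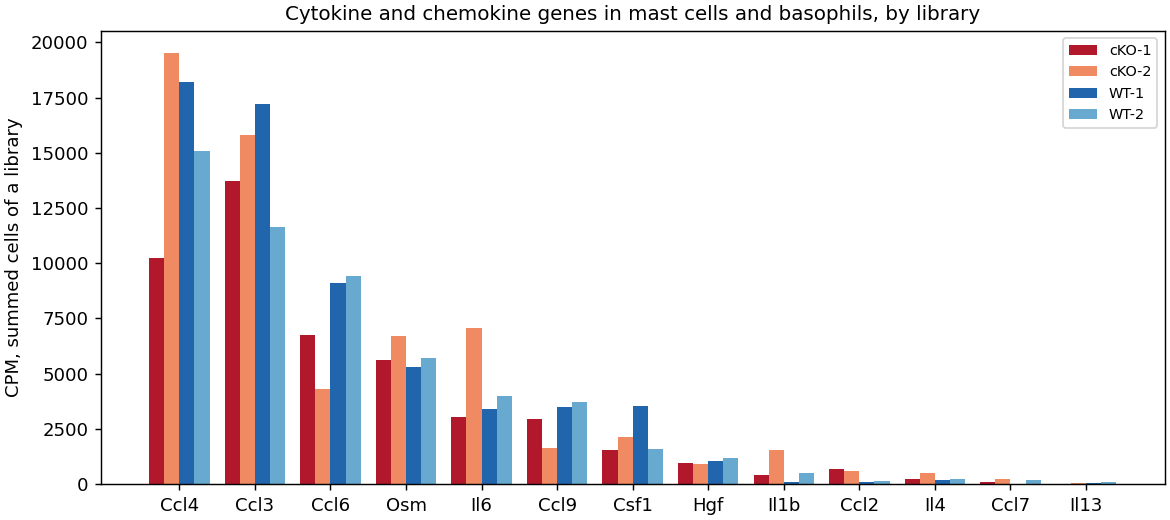
Bars give the CPM of 13 cytokine and chemokine genes in the summed selected cells of each library, cKO libraries in red shades and WT libraries in blue shades. Ccl4 and Ccl3 exceed 10000 CPM in all 4 libraries, and for most genes the 2 genotypes overlap.

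Detection per cell was also high when depth was made equal. Thinned to 2000 UMIs per cell, which left out 11 selected and 6752 other cells, Hdc was expected in 93.0% to 99.2% of selected cells per library and Gata2 in 84.5% to 95.8%. In other kept cells the thinned shares were at most 2.12% for Hdc and 0.122% for Gata2. These shares are not free RNA alone, since the other kept cells include neutrophils, which had Hdc, and the cells just outside the rule. Il6 was expected in 60.7% to 89.4% of selected cells and at most 3.70% of others, and Il4 in 16.9% to 34.9% of selected cells and at most 0.187% of others. Unthinned, 87 of 90 selected cells had an Hdc UMI, 86 a Gata2 UMI, 76 an Il6 UMI and 41 an Il4 UMI. Prss34, a protease of mouse basophils, was the weak marker, with a UMI in 9 of 90 cells.

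Of the 19 receptor genes for growth factors and alarmins, 8 were higher and 8 lower than in other kept cells in all 4 libraries. The shares higher and lower were 9.42% and 27.7% over all genes with a UMI in the selected cells. Over the 1756 genes tested they were 34.6% and 27.7%. The list was led by Csf2rb, the common beta chain of the IL-3, IL-5 and GM-CSF receptors, at 1363 ± 348 CPM in the selected cells against 237 CPM in other kept cells. Its mouse copy Csf2rb2, specific for IL-3, averaged 407 ± 136 CPM against 52.3 CPM; the 2 genes are near-identical, so their split is uncertain. Il18rap and Il18r1, the chains of the IL-18 receptor, averaged 424 ± 107 and 344 ± 71.1 CPM, against 44.8 and 47.3 CPM. In IgE receptor signalling, Fcer1g averaged 1797 ± 252 CPM against 2108 CPM in other kept cells, where other Fc receptors use it. Lyn, the kinase that phosphorylates the receptor, averaged 263 ± 50.3 CPM against 1208 CPM. Of the 17 adhesion and trafficking genes, 8 were higher and 7 lower in all 4 libraries, beside the same shares over all genes. The higher ones included Cd9 and Cd63, tetraspanins of activated basophils and granule membranes, at 1622 ± 382 and 1243 ± 166 CPM, against 100.2 and 85.9 CPM. Itga2, the integrin chain known as CD49b, averaged 199 ± 51.6 CPM against 12.9 CPM. Runx1, which mouse basophil development needs, averaged 1368 ± 196 CPM against 502 CPM.

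Interferon and antigen presentation genes were the low side of these cells. All 19 genes of the type I interferon list that the files hold were lower in the selected cells than in other kept cells in all 4 libraries, and 16 of 22 genes of the interferon gamma and antigen presentation list were. The share lower in all 4 was 27.7% over all genes with a UMI in the selected cells and 27.7% over the 1756 tested. Cxcl10, an interferon-induced chemokine, averaged 234 ± 154 CPM against 1729 CPM. Of the antigen presentation genes, B2m, the light chain of MHC class I, averaged 4020 ± 1192 CPM against 11176 CPM, and Cd74, the MHC class II invariant chain, 158 ± 87.3 CPM against 2138 CPM. H2-Ab1, a class II chain, averaged 109 ± 27.6 CPM against 1449 CPM.

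Fos, an immediate early gene, and Dnajb1, a heat-shock cochaperone, differed more between the libraries of each genotype than between the genotypes' means. Fos had 8749 and 3952 CPM in cKO-1 and cKO-2, against 10384 and 2700 CPM in WT-1 and WT-2, so the libraries numbered 1 were the higher in each genotype. Dnajb1 gave 765 and 123 CPM in the cKO libraries against 551 and 219 CPM in the WT libraries. Hspa1a, an inducible HSP70 gene with a near-identical copy, gave 713 and 6.17 CPM in cKO-1 and cKO-2, against 15.7 and 42.2 CPM in WT-1 and WT-2. The labels give no dissociation time or batch, and the part of handling in these values was not tested.

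Markers of other cells varied across libraries. Natural killer markers (5 of 5 detected) summed to 104 and 290 CPM in cKO-1 and cKO-2, against 31.5 and 515 CPM in WT-1 and WT-2, and 977 CPM in other kept cells. Without the cells above 10000 UMIs the natural killer sums were 104 and 95.2 CPM in the cKO libraries against 31.5 and 76.8 CPM in the WT libraries. One WT-2 cell of 27377 UMIs held 190 of the library's 207 Gzmc UMIs. Monocyte markers (5 of 5 detected) summed to 1905 and 3668 CPM in the cKO libraries against 2407 and 3037 CPM in the WT libraries, and one cKO-2 cell of 25709 UMIs held 71 of that library's 85 Lyz2 UMIs. Without the cells above 10000 UMIs the monocyte sums were 1905 and 2154 CPM in the cKO libraries against 2407 and 3039 CPM in the WT libraries, and the groups did not overlap. T cell markers (7 of 7 detected) summed to 15.7 to 59.1 CPM per library, macrophage markers (6 of 7, Mrc1 at 0) to 267 to 329 CPM, dendritic cell markers (5 of 6, Xcr1 at 0) to 92.6 to 169 CPM and plasmacytoid dendritic cell markers (4 of 4) to 62.9 to 228 CPM. Neutrophil markers (4 of 5, S100a9 at 0) summed to 185 to 441 CPM, most of it Cxcr2. The rule itself limited Cd3 and C1q transcripts, so the T cell and macrophage sums were in part set by the choice of cells. B cell markers (3 of 5, Ms4a1 among those at 0) summed to 0 to 110 CPM and stromal or tumour markers (2 of 7) to at most 13.0 CPM. Of the 6 eosinophil markers, Epx, Prg2, Ear1 and Ear2 were at 0, while Ccr3, an eotaxin receptor also found on basophils, averaged 62.0 ± 44.8 CPM.

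The share of these cells among kept cells did not separate the genotypes. It was 0.207% in cKO-1 (17 of 8205, 95% Clopper-Pearson interval 0.121% to 0.332%) and 0.245% in cKO-2 (23 of 9387, 0.155% to 0.367%). In WT-1 it was 0.196% (20 of 10222, 0.120% to 0.302%) and in WT-2 0.248% (30 of 12092, 0.167% to 0.354%). Means were 0.226% ± 0.0267 in cKO libraries and 0.222% ± 0.0371 in WT libraries (SD, n = 2 each). The difference of 0.00423 percentage points had p = 1 in the two-sided exact permutation test. A share among sorted cells is relative, so it follows the other leukocytes of the tumour as well as these.

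For gene expression the question was what the Trim25 cKO genotype changes in these cells. Trim25, the deleted gene, encodes a ubiquitin ligase that acts with the RNA sensor RIG-I. It lies on mm10 chromosome 11 from 88999376 to 89020293. It had 2 and 7 UMIs in the selected cells of cKO-1 and cKO-2 (25.9 and 43.2 CPM), against 3 and 7 UMIs in WT-1 and WT-2 (47.2 and 59.1 CPM). That is too few for the low-count filter, so no fold change is given and a deletion could not be checked in these cells. Vsir, on chromosome 10 from 60346851 to 60372684, encodes the checkpoint protein VISTA named in the series title. Its counts were 6 and 11 UMIs (77.8 and 67.9 CPM) in the cKO libraries against 5 and 7 UMIs (78.7 and 59.1 CPM) in the WT libraries, and it did not pass the filter either.

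No gene passed an adjusted p of 0.05 among the 1756 tested, a called share of 0%, in edgeR's quasi-likelihood test of the 2 cKO against the 2 WT libraries with Benjamini-Hochberg adjustment. Without adjustment, 77 genes (4.38%) had p under 0.05, 49 with a positive and 28 with a negative fold change, cKO over WT. DESeq2 called 0 as well, with 33 at an unadjusted p under 0.05. Over all genes tested, 892 had a fold change above 0 and 864 below, the median log2 fold change was 0.01, and the lowest adjusted p was 0.328. The 2 cKO libraries did not overlap the 2 WT libraries for 34.7% of the genes tested, with cKO above WT for 15.4% and below for 19.3%. Calls appeared when single libraries were left out: 20 genes without cKO-1, 15 without cKO-2 and 17 without WT-1, but 0 without WT-2.

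The smallest p-values belonged to genes that lay in the chymase-bearing cells. Ccl2, a monocyte attractant on chromosome 11 from 82035571 to 82037453, had 687 and 605 CPM in cKO-1 and cKO-2, against 78.7 and 127 CPM in WT-1 and WT-2. The groups did not overlap, and the log2 fold change was 2.64 ± 0.39 (SE), with an adjusted p of 0.328 in edgeR's test. Of the 53 and 98 Ccl2 UMIs in the cKO libraries, 52 and 86 lay in the chymase-bearing cells, as did 0 of 5 and 10 of 15 in the WT libraries. Without the cells above 10000 UMIs the cKO levels were 687 and 83.3 CPM, against 78.7 and 165 CPM in WT, the groups overlapped, and the log2 fold change was 1.64. With no UMI of the Cd3 and C1q genes allowed, the Ccl2 log2 fold change was 0.72. Rad51b, a DNA repair gene on chromosome 12 from 79297282 to 79814690, had 17 and 47 UMIs in the cKO libraries against 0 and 1 UMI in the WT libraries. Its pooled ratio was 48.7 (95% exact interval 8.44 to 1955, counting error only), and all 64 cKO UMIs lay in 5 cells.

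Mcpt1 itself had 607 and 1747 UMIs in the cKO libraries against 0 and 64 UMIs in the WT libraries, a log2 fold change of 5.05 ± 1.18 (SE) with an adjusted p of 0.864 in edgeR's test. That fold change ranged from 4.18 to 12.88 when 1 library was left out, with the highest value without WT-2, and was 3.47 without the cells above 10000 UMIs. Mcpt1 UMIs were found in 11 and 51 other kept cells of cKO-1 and cKO-2. In WT-1 and WT-2 they were found in 1 and 2 other kept cells. The 7 cells also held 48 of 50 UMIs of Mctp1, a calcium-binding membrane protein, and 55 of 58 UMIs of Rab27b, a GTPase of granule docking. Prkcb, protein kinase C beta, had 661 and 494 CPM in cKO against 173 and 202 CPM in WT, and 64.5% of its UMIs were in the 7 cells. Its groups overlapped without the cells above 10000 UMIs, at 661 and 119 CPM in cKO against 173 and 241 CPM in WT with a log2 fold change of 0.93. They also overlapped in basophil-class cells, at 110 and 474 CPM in cKO against 173 and 169 CPM in WT. Cpa3 had 2644 and 2556 CPM in cKO-1 and cKO-2, against 598 and 1325 CPM in WT-1 and WT-2, with a log2 fold change of 1.47 ± 0.44 (SE) and an adjusted p of 0.948 in edgeR's test. Among basophil-class cells alone Cpa3 had 914 and 2249 CPM in cKO against 598 and 775 CPM in WT. The chymase-bearing cKO-2 cell of 24486 UMIs is in that class, and it held 213 of the library's 414 Cpa3 UMIs. It also held 39 of the library's 80 Prkcb UMIs. Without the cells above 10000 UMIs Cpa3 had 2644 and 821 CPM in cKO against 598 and 1481 CPM in WT, the groups overlapped, and the log2 fold change was 0.78. The part that the number of chymase-bearing cells per library plays in these fold changes was not tested by a model. A fit to basophil-class cells alone, which still include the chymase-bearing cell of 24486 UMIs, called 0 of 1588 genes.

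**Figure D4:**
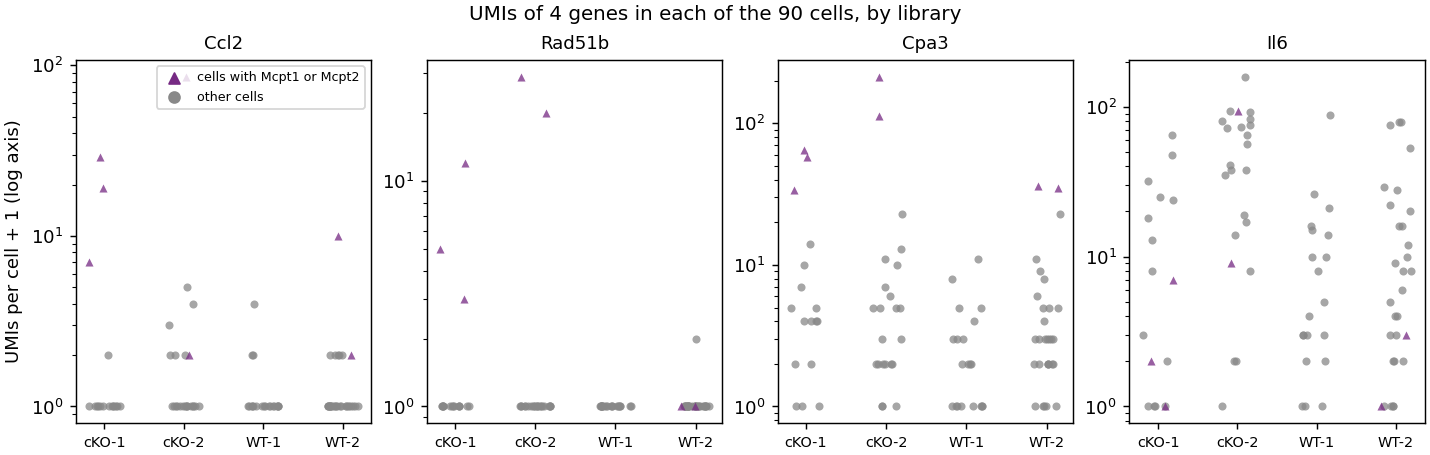
Points give the UMIs plus 1 of Ccl2, Rad51b, Cpa3 and Il6 in each of the 90 cells on a logarithmic axis, with cKO libraries left of WT libraries and triangles for cells with Mcpt1 or Mcpt2. Ccl2, Rad51b and Cpa3 peak in the triangles, whereas Il6 is spread over the other cells.

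The other genes among the 10 smallest p-values with a positive fold change had 9.66% to 58.6% of their UMIs in the 7 cells. Arhgap6, a GTPase-activating protein, had 246 and 216 CPM in cKO against 62.9 and 59.1 CPM in WT. Rnf19b, a ubiquitin ligase, had 557 and 457 CPM against 78.7 and 194 CPM. Nme2, a nucleoside diphosphate kinase, had 207 and 364 CPM against 47.2 and 75.9 CPM, and Nedd8, a ubiquitin-like modifier, 207 and 235 CPM against 62.9 and 67.5 CPM. None of these passed the adjustment (adjusted p 0.808 to 0.872 in edgeR).

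Among those with a negative fold change, Dtnb, a dystrobrevin, had 90.7 and 67.9 CPM in cKO against 299 and 287 CPM in WT, a log2 fold change of -1.84 ± 0.40 (SE) with an adjusted p of 0.808 in edgeR's test. Its groups did not overlap. A WT-2 cell of 27377 UMIs held 14 of that library's 34 Dtnb UMIs. Without the cells above 10000 UMIs the Dtnb log2 fold change was -1.30. Slc15a2, a peptide transporter, had 3 UMIs in cKO against 24 in WT, a pooled ratio of 0.0952 (95% exact interval 0.0183 to 0.313, counting error only). St3gal4, a sialyltransferase, had 194 and 278 CPM against 598 and 548 CPM, and Ccpg1, an endoplasmic reticulum autophagy receptor, 143 and 117 CPM against 315 and 295 CPM. Arhgap26, Pcf11, Pura, Dnajb9 and Ndrg1 were also among the 10, with log2 fold changes of -1.14 to -2.06 and an adjusted p of 0.948 each in edgeR's test. The WT-2 cell of 27377 UMIs held 13 of that library's 18 Pura UMIs. Of the other genes of the rule, Fcer1a had a log2 fold change of 0.53 ± 0.37, Ms4a2 of -0.45 ± 0.32 and Mcpt8 of 0.29 ± 0.45 (SE), and none passed. The Fcer1a value was 0.01 without the cells above 10000 UMIs and 0.04 without cKO-2. The sign of Mcpt8 turned to -0.36 without the cells above 10000 UMIs; 1 cKO-2 cell held 151 of that library's 237 Mcpt8 UMIs.

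**Figure D5:**
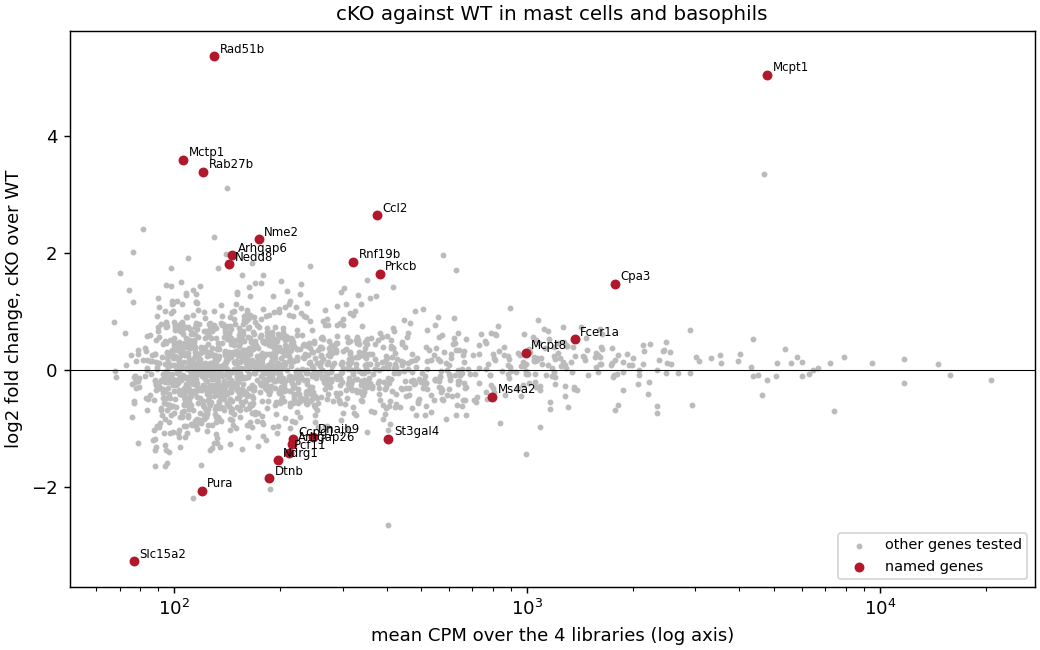
Each point is 1 of the 1756 genes tested, with its mean CPM over the 4 libraries on a logarithmic horizontal axis and its log2 fold change, cKO over WT, on the vertical axis; named genes are red. Rad51b and Mcpt1 lie highest and Slc15a2 lowest, and none of the points passed an adjusted p of 0.05.

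No gene of any list was called between genotypes, as over all genes (0%). Of the growth factor and alarmin receptors, 12 of 19 were tested, 2 with a fold change above 0 and 10 below, with a median log2 fold change of -0.31. The 2 above were Il1rl1, the IL-33 receptor, and Kit, the stem cell factor receptor, with 56.8% and 96.1% of their UMIs in the 7 chymase-bearing cells. Kit had 143 and 370 CPM in cKO against 0 and 50.6 CPM in WT, and Il1rl1 had 350 and 179 CPM against 47.2 and 127 CPM. Of the inhibitory and paired receptors, 8 of 15 were tested, 1 above 0 and 7 below, with a median of -0.55. Lilrb4a, an inhibitory receptor, had 1400 and 1395 CPM in cKO against 2675 and 1755 CPM in WT, and Cd200r3 had 1348 and 661 CPM against 1699 and 1502 CPM. For both genes the groups did not overlap, and neither passed the test.

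The mediator lists were nearer to 0. Cytokines and chemokines had 12 of 22 genes tested, 7 above 0 and 5 below, with a median log2 fold change of 0.16. Granule proteases and storage genes had 9 of 12 tested, 6 above and 3 below, with a median of 0.12. Srgn, the proteoglycan core of granules, had 5586 and 5884 CPM in cKO against 6639 and 4362 CPM in WT, and Hdc had 6092 and 2754 CPM against 4846 and 5434 CPM. Eicosanoid synthesis had 6 of 9 tested, 4 above and 2 below, with a median of 0.16. Ptgs2, the inducible prostaglandin synthase, had 2644 and 4328 CPM in cKO against 2753 and 1848 CPM in WT, and Alox5ap, the helper of 5-lipoxygenase, had 1283 and 969 CPM against 1148 and 1012 CPM. IgE receptor signalling had 12 of 18 tested, 7 above and 5 below, with a median of 0.15. Gab2, an adaptor of that pathway, had 1011 and 741 CPM in cKO against 1762 and 1131 CPM in WT.

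Of the lineage transcription factors 6 of 16 were tested, 5 above 0 and 1 below, with a median log2 fold change of 0.23. Trafficking and adhesion had 13 of 17 tested, 6 above and 7 below, with a median of -0.14. The type I interferon list had 4 genes tested, 2 above and 2 below, and the interferon gamma list had 8, of which 5 were above and 3 below. Isg15, an interferon-induced modifier, had 156 and 309 CPM in cKO against 94.4 and 92.8 CPM in WT, with an adjusted p of 0.948 in edgeR's test. Immediate early and stress genes had 14 of 21 tested, 9 above and 5 below, with a median of 0.09. Zfp36, which destabilises cytokine messages, had 5586 and 5712 CPM in cKO against 9267 and 3434 CPM in WT. Glycolysis and hypoxia genes had 10 of 18 tested, 5 above and 5 below. Pfkp, a phosphofructokinase, had 765 and 377 CPM in cKO against 1211 and 506 CPM in WT, and Ldha, lactate dehydrogenase A, 285 and 475 CPM against 267 and 472 CPM. Proliferation had 3 of 18 tested, 1 above and 2 below, with Hmgb2, a chromatin protein, at 467 and 593 CPM in cKO against 566 and 911 CPM in WT. The last list held VISTA, its reported partners, Trim25 and the RIG-I pathway genes Ddx58 and Mavs. Of these, 2 genes were tested and both were below 0. Selplg, a selectin ligand, had 272 and 284 CPM in cKO against 236 and 388 CPM in WT. Ddx58, which encodes RIG-I, had 64.8 and 98.8 CPM against 110 and 110 CPM.

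Whether the genotype effect in these cells differed from that in the rest of the same libraries was tested as an interaction over 8 sums, with the library as a term. It called 0 of 1756 genes (0%) in edgeR's quasi-likelihood test, with 74 genes (4.21%) under 0.05 before adjustment and a lowest adjusted p of 0.585. Rad51b had the largest difference of the leading genes, 5.56 ± 0.87 (SE) on the log2 scale, followed in p by Cpa3 at 2.23 ± 0.40, and neither passed. Ccl2 differed by 2.27 ± 0.49 (SE), with an adjusted p of 0.769 in the same test. Mcpt1 differed by only 0.96 ± 1.81 (SE), with an adjusted p of 0.998 in that test.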

How the data were processed

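The files are 1 matrix per library of whole-number UMI counts per gene and barcode, deposited unnormalized by the authors. The submitters' processing notes name Cell Ranger, STAR and mm10; settings and versions: not given in the sources used here. Of 32285 feature IDs, 32158 matched GENCODE vM21.

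Cells were kept from 300 genes and 500 UMIs upwards, with mitochondrial UMIs up to 15%. Selected cells' counts were summed per library and tested with edgeR 4.0.16 in R 4.3.3: filterByExpr, TMM, quasi-likelihood F test of genotype, and Benjamini-Hochberg adjustment over all genes at 0.05. The interaction used sums of selected and of other kept cells. All p-values are two-sided. DESeq2 1.42.0, other scaling, no filter, stricter, cleaner or deeper cells, omitted libraries and a replicate block were alternatives. Same-numbered libraries of the genotypes are not stated to be paired. Shares were compared by an exact permutation test with Clopper-Pearson intervals at 95%. Thinning is the expected share with a UMI in 2000 drawn UMIs. Scrublet ran in scanpy 1.11.5 (python 3.11.15).

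The cells, lists and tests were chosen with earlier results of these data known. Genes were named by rule: Trim25, Vsir, the 4 rule genes, called genes or else the 10 per direction with the smallest p, the 25 largest ratios to other kept cells, and the most abundant of each list. Genes named for the chymase-bearing cells were chosen after their values were seen. The code was tested on simulated data. No library was left out. Some genes that these rules name are not reported here. Depth per library and interval methods stand beside the values.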

Additional observations from a re-analysis of the deposited data

How the results depend on the processing

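The count of 0 genes called between genotypes stayed at 0 with RLE scaling, DESeq2, at least 5 marker UMIs, at least 1500 UMIs, Scrublet scores above 0.2 left out, and, both added after seeing the data, without cells above 10000 UMIs and with basophil-class cells alone. It was 15 of 11292 genes with no low-count filter, 9 with no UMI of the Cd3 and C1q genes, 4 with no Cd3 and C1q exclusion (added after seeing the data), and 0 to 20 when 1 library was left out, where the lone library of a genotype is assumed to vary like the others. With the replicate number as a block the count was 3 (Ccl2, Rad51b and Mcpt1). Deviations of same-numbered libraries correlated at r = 0.214 over 1756 genes, which with only 2 numbers does not establish pairing. The interaction called 6 of 25925 genes with no filter and 0 under the others run for it, which were RLE scaling, the block, each omitted library and cells above 10000 UMIs left out. The cause of these changes was not tested. The difference in share of kept cells reversed to -0.0162 percentage points with no UMI of the Cd3 and C1q genes, and ranged from -0.0220 to 0.0304 when 1 library was left out. The basophil-class share difference kept its sign in the alternatives run for it: at least 2 UMIs of the winning marker set, Scrublet scores above 0.2 left out, and 1 library left out (-18.5 to -8.04). Of 342 alternative values for the 24 named genes tested, 314 kept their direction and side of the threshold, 25 passed it in the same direction and 3 reversed, all of Mcpt8: -0.49 without cKO-2 (-0.49 to 0.72 over the omitted libraries), -0.85 with no UMI of the Cd3 and C1q genes and -0.36 without cells above 10000 UMIs. Ccl2, Rad51b and Mcpt1 passed under 6 alternatives each. The planned separate test of basophil-class cells required 20 such cells per library and was not run because cKO-1 had 13; the fit above took its place. Depth limits genes such as Trim25, with at most 7 UMIs per library.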
